A study of Mus musculus with 12 samples.

Results

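The 10 genes described here encode enzymes of ceramide and sphingomyelin metabolism: Sptlc1, Sptlc2, Cers2, Cers4, Cers5, Cers6, Degs1, Sgms1, Smpd3 and Ugcg. They were taken by gene symbol from the count tables of 12 mouse liver RNA-seq libraries, and 10 of the 10 symbols were found among 54532 listed genes. Of these, 28715 were counted in 1 or more libraries. The animals were male PPARγ flox/flox mice, given a single AAV8 injection at 8 weeks of age and then fed a fast-food diet (FFD) rich in fat, cholesterol and sucrose, with sugar in the drinking water, for 2 or 5 months. In the PPARγ-KO groups the virus carried Cre recombinase under the hepatocyte-specific TBG promoter, which leaves other liver cells untargeted. In the wild-type (WT) groups, littermates received AAV8 with eGFP under the same promoter. WT animals therefore also carried the floxed alleles, the virus and the diet. Each of the 4 groups (WT and PPARγ-KO at 2 and at 5 months) had 3 libraries of total RNA from liver. No library from chow-fed mice was analysed here. The labels number the libraries as repeats, and nothing ties a number to a mouse, so p-values measure the spread between these libraries, which may be partly technical.

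Ceramide is the central lipid of this pathway. Serine palmitoyltransferase joins serine and palmitoyl-CoA in the first, rate-limiting step, and ceramide synthases then attach a fatty acyl chain whose length depends on the synthase. A desaturase turns the product, dihydroceramide, into ceramide. Ceramide is converted to sphingomyelin by sphingomyelin synthases or to glucosylceramide by glucosylceramide synthase, and sphingomyelinases release it again from sphingomyelin. In the liver, ceramides are known for their association with steatosis and impaired insulin signaling, which is the setting of this diet model.

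Promoter sequence is shown for 3 of the genes. Sptlc1 and Sptlc2 encode subunits of serine palmitoyltransferase, and their mRNA rose with time on the diet in both genotypes. The genotype difference of Cers6 had opposite signs at the 2 times without passing the threshold at either. The sequences are the 250 bases before each gene's RefSeq start, written 5′ to 3′ on the gene's strand, from RefSeq (GRCm38.p6, the assembly that mm10 names). They lie at chr13:53377362-53377611 for Sptlc1 (minus strand), chr12:87388356-87388605 for Sptlc2 (minus strand) and chr2:68861191-68861440 for Cers6 (plus strand). Capitals mark the box CCAAT, which NF-Y-type factors bind, and the GC box GGGCGG, which Sp1-type factors bind, each read on either strand.
Sptlc1: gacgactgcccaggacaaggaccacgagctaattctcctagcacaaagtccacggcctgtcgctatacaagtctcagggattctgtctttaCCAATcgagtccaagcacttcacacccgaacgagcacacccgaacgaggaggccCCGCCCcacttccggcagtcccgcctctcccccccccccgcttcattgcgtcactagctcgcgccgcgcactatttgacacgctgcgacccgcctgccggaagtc
Sptlc2: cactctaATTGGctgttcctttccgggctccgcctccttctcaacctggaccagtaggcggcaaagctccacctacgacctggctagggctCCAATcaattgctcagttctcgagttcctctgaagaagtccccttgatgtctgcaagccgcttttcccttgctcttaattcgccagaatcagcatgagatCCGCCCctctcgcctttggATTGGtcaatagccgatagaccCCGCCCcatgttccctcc
Cers6: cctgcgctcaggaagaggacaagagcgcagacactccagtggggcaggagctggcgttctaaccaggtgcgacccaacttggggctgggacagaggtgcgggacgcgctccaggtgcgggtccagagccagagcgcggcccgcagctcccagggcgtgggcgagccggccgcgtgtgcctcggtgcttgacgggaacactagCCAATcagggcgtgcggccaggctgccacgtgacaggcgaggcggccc
The Sptlc1 window held 1 CCAAT and 1 GC box, that of Sptlc2 held 3 CCAAT and 2 GC boxes, and that of Cers6 held 1 CCAAT and no GC box. In both serine palmitoyltransferase promoters a CCAAT on the plus strand of the gene stood at positions -159 to -155 from the RefSeq start. The RefSeq start of Sptlc1 lies 36 bases inside the gene as the count tables place it (0 bases for Sptlc2 and Cers6), so this shared position depends on the start used. CCAAT was present in 33.8% and GGGCGG in 32.7% of 32851 mouse promoter windows of the same length. AGGTCA, the nuclear receptor half-site, was searched on both strands together with its direct repeat with 1 base between (AGGTCANAGGTCA, the arrangement bound by PPAR-RXR pairs, which contains 2 half-sites). Neither was found in these 3 windows. The half-site occurred in 14% and the direct repeat in 0.0335% of all windows. Of the 10 genes, 9 had a RefSeq window. Smpd3 had none, so its promoter was not searched. There were 13 windows in all because Cers2 and Sgms1 have several starts, and the half-site occurred in 1 window of Cers2 and in 2 of Sgms1.

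Total counts per library ranged from 16367775 to 27452284, and the 10 genes together took 0.0579% to 0.0705% of them. Levels are given as normalized CPM, the count scaled by library size and by a TMM factor computed over the 12 libraries. Differences are log2 fold changes from edgeR's quasi-likelihood F-test with its standard error (SE), and a gene was called when its Benjamini-Hochberg adjusted p over all tested genes was below 0.05. All 10 genes passed the filter on low counts in every comparison. Pparg itself, the targeted gene, had 38.8, 41.4 and 37.6 normalized CPM in WT and 50.4, 66.5 and 52.0 in PPARγ-KO livers at 2 months. At 5 months it had 36.9, 41.4 and 37.1 in WT and 86.5, 92.9 and 75.0 in PPARγ-KO livers. Its counts were therefore higher, not lower, in the libraries labelled PPARγ-KO (log2 fold change 0.52, SE 0.107, edgeR adjusted p = 0.0309 at 2 months, and 1.15, SE 0.0847, edgeR adjusted p = 2.57e-06 at 5 months). With single libraries left out, the 2-month call of Pparg held only without WT replicate 1. The tables count whole genes and not the floxed exons, so they do not show the deletion, and genotype directions below follow the labels. The study itself reported loss of PPARγ protein from PPARγ-KO livers at both times, by Western blot. Among the libraries, WT replicate 1 at 2 months stood farthest from its group. Hepatocyte markers (8 genes) summed to 53180 to 57460 normalized CPM in WT and 71170 to 83010 in PPARγ-KO livers at 5 months, with 3 of 8 called higher. That sum was mostly Alb (means of 36940 in WT and 57050 in PPARγ-KO livers), and 2 of the 8 markers were lower in PPARγ-KO livers. The macrophage and Kupffer cell markers summed to 1128 to 1265 normalized CPM in WT and 542 to 679 in PPARγ-KO livers at 5 months, with 8 of 9 markers called lower. In whole liver, fewer cells of a type and less RNA per cell cannot be told apart.

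Per kilobase of gene length, the 10 genes spanned more than 2 orders of magnitude, and Cers2 was the highest in every group. Cers2, the synthase of very-long-chain ceramides and the main ceramide synthase of liver, had a mean of 98.7 ± 2.59 normalized CPM per kb in WT and 105.9 ± 1.40 in PPARγ-KO livers at 2 months (SD, n = 3), and 88.6 ± 7.26 and 92.7 ± 3.74 at 5 months. Degs1 (mm10, chr1:182275772-182282804, minus strand), the desaturase, followed with group means of 26.3 to 28.1 per kb. Neither overlapped its neighbors in that order in any group. Sptlc1 came next in every group (8.62 to 12.9 per kb) and then Smpd3 (6.09 to 9.57), and their ranges overlapped in the PPARγ-KO group at 2 months. Ugcg, Sptlc2 and Cers6 lay between 2.54 and 6.27 per kb. At 2 months in WT the ranges of Smpd3 and Ugcg, of Ugcg and Sptlc2, and of Sptlc2 and Cers6 overlapped. Sgms1 ranked below these at 2.05 to 2.41 per kb and overlapped Cers6 in WT at 5 months and in PPARγ-KO at 2 months. Cers5 (0.895 to 1.16 per kb) and Cers4 (0.220 to 0.469) were lowest in every group, without overlap. These last 2 genes rested on 43 to 93 and 44 to 179 counts per library. Ranks, spans and shares per kb depend on the deposited gene lengths (12264 bases for Cers4 and 3542 for Cers5). Without length, mean normalized CPM of Cers4 was above that of Cers5 at 2 months (5.15 and 4.10 in WT, 5.75 and 3.17 in PPARγ-KO). At 5 months it was below (2.85 and 3.97 in WT, 2.70 and 3.50 in PPARγ-KO).

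**Figure D1:**
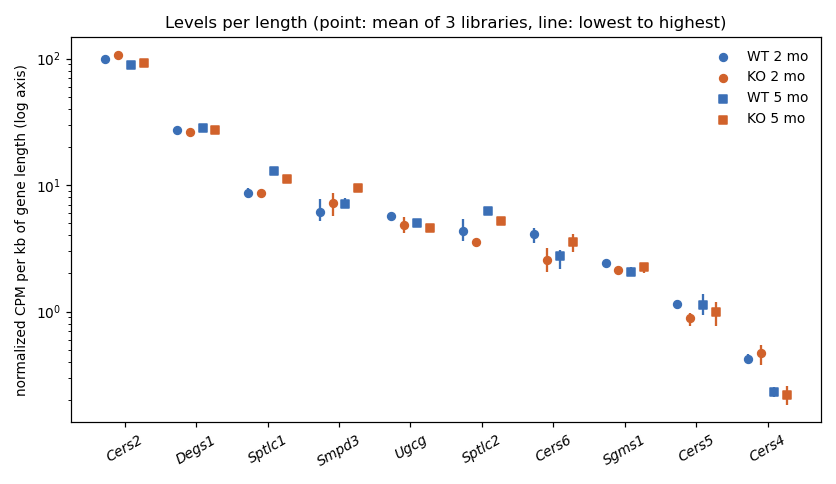
Level of each of the 10 genes in each group, as normalized CPM per kb of gene length on a log axis, with the genes ordered by their mean level. Points are means of 3 libraries and lines run from the lowest to the highest library. Cers2 sits at 88.6 to 105.9 and Cers4 at 0.220 to 0.469 in the 4 group means.

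Cers2 made up most of the ceramide synthase mRNA in every library. Of the summed per-kb level of Cers1 to Cers6, it accounted for 94.5 ± 0.597% in WT and 96.4 ± 0.474% in PPARγ-KO livers at 2 months (SD, n = 3), and for 95.5 ± 0.989% and 95.1 ± 0.309% at 5 months. Cers6, which makes ceramides with C16 acyl chains, accounted for 3.92 ± 0.601% and 2.31 ± 0.475% at 2 months and for 2.99 ± 0.703% and 3.60 ± 0.417% at 5 months. The ratio of Cers2 to Cers6 per kb ran from 21.4 to 29.3 in WT and from 33.9 to 51.1 in PPARγ-KO libraries at 2 months, without overlap. At 5 months it ran from 27.8 to 44.4 in WT and from 23.5 to 29.8 in PPARγ-KO, and the groups overlapped. The ratio rests on the same values as the comparisons of Cers2 and Cers6 below, and edgeR called neither gene between the genotypes at either time. Of all tested genes taken singly, 24.1% did not overlap between the genotypes at 2 months. Cers1 and Cers3 had at most 2 counts in any library.

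None of the 10 genes was called between PPARγ-KO and WT livers at 2 months by edgeR, where 3.56% of 14573 tested genes were called (1.78% higher and 1.78% lower). At an unadjusted p below 0.05 there were 2 (Cers6 and Sptlc2), beside 18.9% of all tested genes, and DESeq2 called 1 (Cers6), beside 6.78%. The member with the largest difference was Cers6. Its normalized CPM was 30.8, 40.3 and 37.7 in WT and 21.5, 28.1 and 18.2 in PPARγ-KO libraries, so that all 3 PPARγ-KO values lay below the lowest WT value. The log2 difference was -0.69 (SE 0.168, 95% interval -1.08 to -0.31), or a fold of 0.620, with an edgeR adjusted p of 0.068. This value depended on whether libraries were paired by number, which nothing ties to a mouse. At 2 months the deviations of same-numbered libraries correlated weakly (r = 0.218, 0.323 and 0.14), beside -0.273 to 0.113 for the other pairs. Similar values arose between the separate WT animals of the 2 times (0.239, 0.186 and 0.0198), so these correlations do not show a pairing. With the replicate number as a block the edgeR adjusted p of Cers6 was 0.0118 and the number of members called was 1. Cers6 was also called by DESeq2 (adjusted p = 0.003), without WT replicate 1 (edgeR adjusted p = 0.0291) and without PPARγ-KO replicate 2 (edgeR adjusted p = 0.0211). In the 4 other fits that left out 1 library of the 2-month groups, it was not called. Marker sums of several cell types also separated the genotypes at 2 months. They ran from 56240 to 68800 normalized CPM in WT and from 72070 to 84780 in PPARγ-KO livers for hepatocytes (0 of 8 markers called), and from 507.8 to 600.5 and 388.8 to 396.1 for stellate cells (1 of 8 called, lower). For cholangiocytes they ran from 99.9 to 180.8 and from 67.5 to 87.8 (0 of 5 called). That sum was mostly Spp1 (means of 127.8 in WT and 67.7 in PPARγ-KO livers). Only 2 of the 5 cholangiocyte markers were lower in PPARγ-KO livers, with a median log2 difference of 0.063 over the list. The hepatocyte sum was mostly Alb (means of 44910 in WT and 57730 in PPARγ-KO livers), and 1 of the 8 hepatocyte markers was lower in PPARγ-KO livers. The part of these cell types in the 2-month differences was not tested.

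The remaining synthases differed less at 2 months. Cers2 had 373.8, 357.7 and 356.9 normalized CPM in WT and 388.5, 394.7 and 384.5 in PPARγ-KO libraries. These groups did not overlap, but the difference was small (log2 0.10, SE 0.0716, edgeR adjusted p = 0.50). Cers5 (chr15:99734881-99772885, minus strand), which also makes C16 ceramides, had 4.36, 4.22 and 3.70 in WT and 2.74, 3.31 and 3.46 in PPARγ-KO libraries, again without overlap (log2 -0.37, SE 0.192, edgeR adjusted p = 0.347). Cers4, a synthase of longer-chain ceramides, overlapped between the genotypes.

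Among the other enzymes at 2 months, Sgms1 (chr19:32122727-32389714, minus strand), the Golgi sphingomyelin synthase, had 25.8, 23.7 and 24.9 normalized CPM in WT and 22.5, 23.0 and 20.7 in PPARγ-KO libraries, without overlap (log2 -0.17, SE 0.0878, edgeR adjusted p = 0.343). Sptlc2 had 29.1, 43.4 and 33.8 in WT and 28.7, 30.04 and 27.4 in PPARγ-KO libraries. The WT values were widely spread, and WT replicate 1 was the low one. The log2 difference of Sptlc2 was -0.31 (SE 0.134, edgeR adjusted p = 0.257) and, without WT replicate 1, -0.43 (edgeR adjusted p = 0.0297). Sptlc1, Degs1, Smpd3 and Ugcg overlapped between the genotypes, with log2 differences from -0.22 (Ugcg) to 0.24 (Smpd3). In all, groups of 4 members did not overlap (1 above and 3 below WT), beside 24.1% of all tested genes (12.1% above and 12% below), and the members' median log2 difference was -0.12, beside -0.00483 over all genes.

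**Figure D2:**
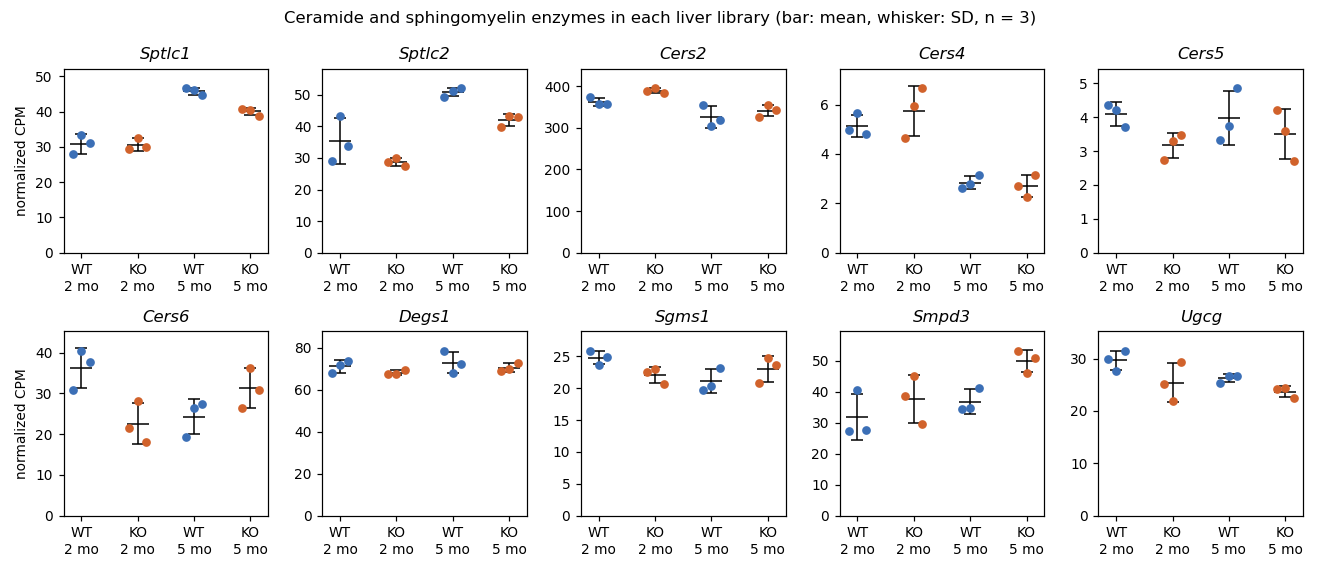
Normalized CPM of the 10 genes in each of the 12 libraries, from 0, with WT libraries in blue and PPARγ-KO libraries in orange. Horizontal bars are means and whiskers SD (n = 3). Sptlc1, Sptlc2 and Cers4 separate the 2-month from the 5-month libraries in both genotypes, and Cers6 is at 18.2 to 28.1 in PPARγ-KO against 30.8 to 40.3 in WT livers at 2 months.

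At 5 months, 2 of the 10 genes were called between the genotypes, Smpd3 higher and Sptlc2 lower in PPARγ-KO livers, where 18.4% of 14138 tested genes were called (8.9% higher and 9.51% lower). Smpd3, the neutral sphingomyelinase that cleaves sphingomyelin to ceramide at membranes, had 34.3, 34.8 and 41.4 normalized CPM in WT and 53.1, 46.2 and 50.8 in PPARγ-KO libraries. All PPARγ-KO values lay above all WT values. The log2 difference was 0.45 (SE 0.0857, 95% interval 0.27 to 0.64), or 1.37-fold, with an edgeR adjusted p of 0.00269. It was called whichever single library was left out. In a fit of all 12 libraries together, whose spread is shared with the 2-month groups, its edgeR adjusted p was 0.132. Smpd3, Cers5 and Cers6 stand in gene lists that the study drew from these same libraries, as do Smpd2, Arsa, Psap, Cerk, Spns2, St3gal5, B4galt5 and Kdsr among the genes named below, so the directions of these genes are not independent evidence.

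Smpd3 (mm10, chr8:106252548-106337988, minus strand) shares 247 exonic bases with Prmt7 on the opposite strand, and the counting is not stated to use strand. Prmt7 had 237 to 369 counts per library, beside at least 502 for Smpd3. The log2 difference of Prmt7 at 5 months was 0.03 (edgeR adjusted p = 0.889). At 2 months Smpd3 itself had 27.4, 40.6 and 27.7 in WT and 38.5, 45.0 and 29.6 in PPARγ-KO libraries. These overlapped (log2 0.24, SE 0.207, edgeR adjusted p = 0.605), and the knockout effect at 5 months minus that at 2 months was 0.21 (SE 0.248, edgeR adjusted p = 0.769).

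Sptlc2 (chr12:87305058-87388355, minus strand), a catalytic subunit of serine palmitoyltransferase, had 49.4, 51.3 and 52.0 normalized CPM in WT and 39.9, 43.4 and 43.0 in PPARγ-KO libraries at 5 months. The groups did not overlap, and the log2 difference was -0.26 (SE 0.0665, 95% interval -0.41 to -0.12, edgeR adjusted p = 0.0145), or a fold of 0.833. Its call was lost without WT replicate 2 (edgeR adjusted p = 0.0617), WT replicate 3 (0.0704) or PPARγ-KO replicate 1 (0.0658), in the fit of all 12 libraries (0.104) and under a minimum fold of 1.3. Its partner subunit Sptlc1 (chr13:53332748-53377397, minus strand) had 46.6, 46.0 and 44.7 in WT and 40.8, 40.5 and 38.9 in PPARγ-KO libraries. It did not pass the threshold although the groups did not overlap (log2 -0.18, SE 0.0629, edgeR adjusted p = 0.0637). With library size alone as the scaling it did pass (edgeR adjusted p = 0.0126). The macrophage and stellate cell marker sums were also lower in PPARγ-KO livers at 5 months (stellate 546 to 669.6 in WT and 447 to 511 in PPARγ-KO). Of the 8 stellate markers, 7 were lower and 4 were called lower. Means in WT and PPARγ-KO were 83.9 and 43.1 for Col1a1, beside 52.8 and 50.1 for Lrat and 73.1 and 72.2 for Reln. The part of cell composition in the differences of Sptlc1 and Sptlc2 was not tested.

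Cers6 (chr2:68861441-69114282, plus strand) was at 19.3, 26.3 and 27.3 normalized CPM in WT and 26.5, 36.3 and 30.9 in PPARγ-KO libraries at 5 months. The highest values were in PPARγ-KO libraries, but the groups overlapped (log2 0.37, SE 0.157, 95% interval 0.01 to 0.73, edgeR adjusted p = 0.156). The difference between the genotype effects at the 2 times was 1.05 (SE 0.263, 95% interval 0.47 to 1.63), the largest in size of the 10 members. Its edgeR adjusted p was 0.0835 and its unadjusted p 0.00216. With the replicate number as a block within each time it was 1.07 (edgeR adjusted p = 0.00533), although same-numbered libraries did not deviate together at 5 months, and DESeq2 gave 1.04 (adjusted p = 0.00287). It was called by edgeR in 1 of 12 fits that left out a library, without PPARγ-KO replicate 2 at 2 months (adjusted p = 0.0254). By edgeR none of the 10 members was called in this difference, where 1.57% of 15127 genes were (0.661% higher and 0.912% lower). Of the members, 2 had an unadjusted p below 0.05 (Cers6 and Sgms1), beside 14.9% of all tested genes, and DESeq2 called Cers6 alone, beside 3.93%. Sgms1 had a difference of 0.29 (SE 0.129, edgeR adjusted p = 0.293).

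The remaining members were not called at 5 months. Ugcg (chr4:59189257-59222833, plus strand), which starts glycosphingolipid synthesis by adding glucose to ceramide, had 25.4, 26.8 and 26.7 normalized CPM in WT and 24.1, 24.5 and 22.5 in PPARγ-KO libraries. Those groups did not overlap, and the log2 difference was -0.14 (SE 0.0761, edgeR adjusted p = 0.244). Degs1 had 78.3, 68.1 and 72.2 in WT and 69.0, 69.6 and 72.7 in PPARγ-KO libraries. Its groups overlapped, with an interval of the log2 difference from -0.18 to 0.11. Intervals ran from -0.08 to 0.24 for Cers2, from -0.54 to 0.40 for Cers4, from -0.64 to 0.31 for Cers5 and from -0.07 to 0.34 for Sgms1. At these counts a fall of 1.3-fold lies inside the interval of both Cers4 and Cers5. Groups did not overlap for 4 members (1 above and 3 below WT), beside 34.8% of all genes tested (15.8% above and 19% below), and the members' median log2 difference was -0.06.

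**Figure D3:**
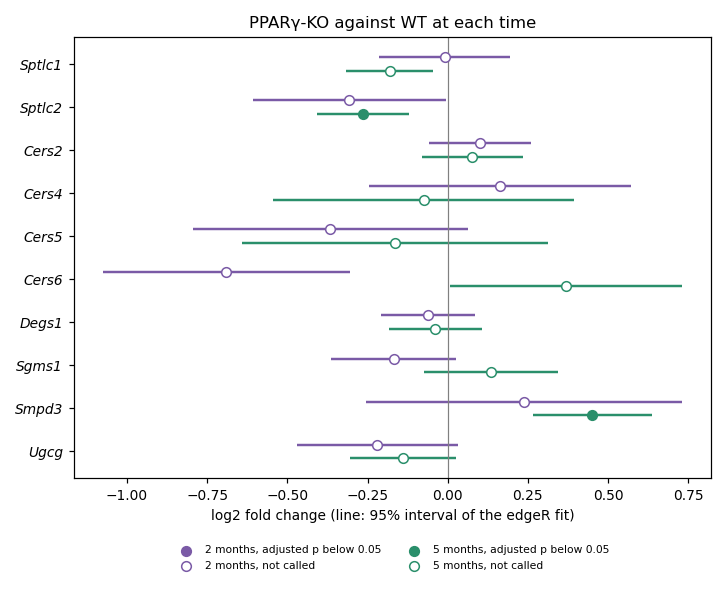
Log2 fold change of PPARγ-KO against WT for the 10 genes at 2 months (violet) and 5 months (green), from separate edgeR fits. Lines are 95% intervals, and filled points have an adjusted p below 0.05. Smpd3 (0.45) and Sptlc2 (-0.26) are filled at 5 months, none is filled at 2 months, and Cers6 lies at -0.69 and 0.37.

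The change from 2 to 5 months was larger than the genotype difference for the serine palmitoyltransferase subunits and for Cers4. In WT livers 4 of the 10 genes were called (Sptlc1 and Sptlc2 higher, Cers4 and Cers6 lower at 5 months), where 46.4% of 14491 tested genes were called (23.8% higher and 22.7% lower). In PPARγ-KO livers 4 were called (Sptlc1 and Sptlc2 higher, Cers2 and Cers4 lower), where 44.9% of 14478 genes were (22.7% higher and 22.2% lower). These shares are near the background, so the counts are no result about the members as a list. The 2 times are separate sets of animals, and time on the diet cannot be told apart from age or from any difference in handling between the sets. The time comparisons share their libraries with the genotype comparisons. The macrophage and Kupffer cell marker sum also differed between the times in WT livers, with 411 to 544 normalized CPM at 2 months and 1128 to 1265 at 5 months, with 8 of 9 markers called higher. In PPARγ-KO livers it was 452 to 502 at 2 months and 542 to 679 at 5 months, with 4 of 9 called higher and 2 lower. Of the T and NK cell markers, 4 of 5 tested were called higher in WT livers and 0 of 2 in PPARγ-KO livers. The part of these cells in the changes over time, those of the regulators given further on included, was not tested.

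Sptlc1 rose from 28.0, 33.5 and 31.0 to 46.6, 46.0 and 44.7 normalized CPM in WT libraries (log2 0.57, SE 0.0820, edgeR adjusted p = 0.000273). In PPARγ-KO libraries it rose from 29.4, 32.7 and 29.9 to 40.8, 40.5 and 38.9 (log2 0.39, SE 0.0711, edgeR adjusted p = 0.00119). Sptlc2 rose by 0.52 in WT (SE 0.126, edgeR adjusted p = 0.00781) and by 0.55 in PPARγ-KO livers (SE 0.0724, edgeR adjusted p = 0.00012). For both subunits, all 5-month libraries of a genotype lay above all its 2-month libraries. The genotype effects at the 2 times did not differ detectably for Sptlc1 (-0.18, SE 0.105, edgeR adjusted p = 0.443) or Sptlc2 (0.03, SE 0.151, edgeR adjusted p = 0.950).

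Cers4 (chr8:4493026-4531680, plus strand) moved the other way. It fell from 4.96, 5.66 and 4.82 to 2.61, 2.80 and 3.13 normalized CPM in WT libraries, and from 4.66, 5.93 and 6.66 to 2.69, 2.26 and 3.16 in PPARγ-KO libraries. The groups did not overlap in either genotype. The log2 change was -0.85 in WT (SE 0.191, edgeR adjusted p = 0.00407) and -1.10 in PPARγ-KO livers (SE 0.205, edgeR adjusted p = 0.0012), or folds of 0.554 and 0.465. The time calls of Sptlc1, Sptlc2 and Cers4 held in both genotypes under every alternative that was run.

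Cers6 fell in WT livers over the same interval (log2 -0.58, SE 0.145, edgeR adjusted p = 0.00975), from 30.8 to 40.3 at 2 months to 19.3 to 27.3 at 5 months. In PPARγ-KO livers its log2 change was 0.47 (SE 0.185, edgeR adjusted p = 0.0783), with overlapping groups, and it was called by DESeq2 (0.47, adjusted p = 0.0118) and by edgeR without replicate 2 at 2 months (0.00524) or replicate 1 at 5 months (0.0456). This is the same contrast as the difference of genotype effects given above, read the other way. Cers2 fell in PPARγ-KO livers (log2 -0.19, SE 0.0574, edgeR adjusted p = 0.0171), where that call was lost without PPARγ-KO replicate 1 at 2 months (0.0516), replicate 1 at 5 months (0.0823) or replicate 3 at 5 months (0.0535), and its value in WT was -0.16 (SE 0.0850, edgeR adjusted p = 0.151). Cers2 (chr3:95314791-95323599, plus strand) shares 75 exonic bases with Setdb1 on the opposite strand, which had 344 to 816 counts per library beside at least 5201 for Cers2, and Setdb1 was also lower at 5 months in PPARγ-KO livers (log2 -0.35, edgeR adjusted p = 0.00686). Smpd3 had a log2 change of 0.41 in PPARγ-KO livers (SE 0.145, edgeR adjusted p = 0.0525, DESeq2 adjusted p = 0.00975) and of 0.21 in WT livers (SE 0.158, edgeR adjusted p = 0.313). It was called by edgeR in PPARγ-KO livers without replicate 2 (0.00351) or 3 (0.0445) at 2 months, and in WT livers without replicate 2 at 2 months (0.0115).

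Degs1, Cers5, Sgms1 and Ugcg were not called over time in either genotype. Degs1 stayed within 67.4 to 78.3 normalized CPM in all 12 libraries, and its log2 change was 0.04 in WT (95% interval -0.13 to 0.20) and 0.05 in PPARγ-KO livers (95% interval -0.09 to 0.18). The value for Sgms1 in WT livers was -0.23 (SE 0.0964, edgeR adjusted p = 0.0705) and for Ugcg -0.17 (SE 0.0851, edgeR adjusted p = 0.116). With library size alone as the scaling, which moves the median of all genes to -0.0929, Cers2, Sgms1 and Ugcg were also called lower in WT, for 7 members in all.

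**Figure D4:**
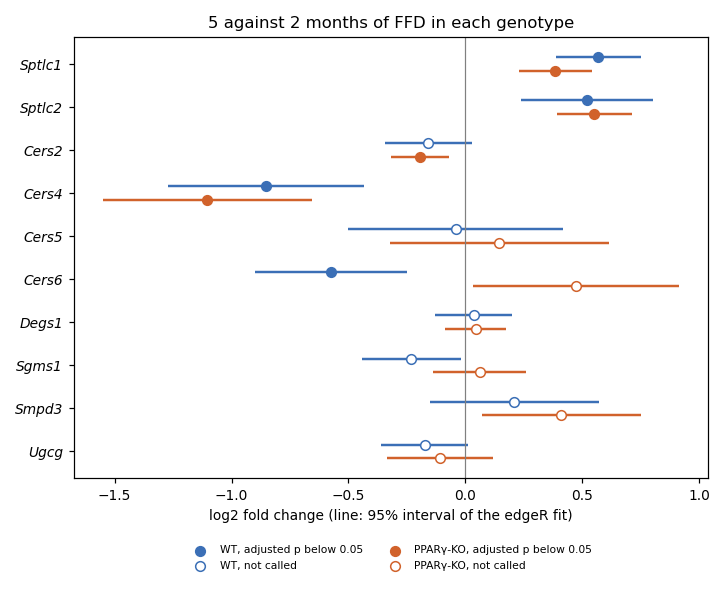
Log2 fold change from 2 to 5 months of FFD for the 10 genes in WT (blue) and PPARγ-KO livers (orange). Lines are 95% intervals, and filled points have an edgeR adjusted p below 0.05. Sptlc1 and Sptlc2 lie to the right (0.39 to 0.57) and Cers4 to the left (-0.85 and -1.10) in both genotypes, while Cers6 lies at -0.58 in WT and 0.47 in PPARγ-KO.

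To place the 10 genes in the whole pathway, 50 other sphingolipid genes were examined, of which 38 to 40 passed the filter on low counts, depending on the comparison. At 2 months 4 of 38 were called between the genotypes, beside 3.56% of all genes. Sgms2, the plasma membrane sphingomyelin synthase, was higher in PPARγ-KO livers (68.5, 60.1 and 58.5 in WT and 80.9, 75.5 and 80.3 normalized CPM in PPARγ-KO libraries, log2 0.34, edgeR adjusted p = 0.0464), as was Gm2a, the GM2 activator protein (log2 0.42, edgeR adjusted p = 0.0253). Arsa, the lysosomal arylsulfatase that degrades sulfatide, was lower (log2 -0.68, edgeR adjusted p = 0.00245), as was Smpdl3a, a relative of acid sphingomyelinase (log2 -0.38, edgeR adjusted p = 0.0469). Of these, Arsa alone was called whichever library was left out. In those fits Smpdl3a was called without WT replicate 1 or PPARγ-KO replicate 3, and Sgms2 and Gm2a without WT replicate 1 only. In the fits that lost them, edgeR adjusted p ran from 0.0856 to 0.188 for Sgms2, from 0.0514 to 0.0987 for Gm2a and from 0.136 to 0.169 for Smpdl3a.

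At 5 months 13 of 39 were called, 4 higher and 9 lower in PPARγ-KO livers, beside 18.4% of all genes. St3gal5, the GM3 synthase that starts ganglioside synthesis, had 99.4, 94.1 and 90.6 normalized CPM in WT and 191.2, 188.3 and 197.7 in PPARγ-KO libraries. The groups were far apart (log2 1.03, SE 0.0622, edgeR adjusted p = 9.97e-07). The sphingomyelinase Smpd2 was also higher, at 23.9, 23.3 and 23.4 in WT and 35.7, 33.2 and 32.7 in PPARγ-KO libraries (log2 0.54, SE 0.0709, edgeR adjusted p = 0.000228). Samd8, a ceramide phosphoethanolamine synthase of the sphingomyelin synthase family, and Spns2, a sphingosine 1-phosphate transporter, were higher by 0.40 and 0.46 (edgeR adjusted p = 0.00193 and 0.00113).

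Of the 9 genes called lower at 5 months, 8 are named here. By role, 1 of 4 tested ceramidases and 3 of 9 genes of glycosphingolipid breakdown were called lower and none higher, and 3 of 6 genes of glycosphingolipid synthesis and transfer were called lower and 1 higher. Of all tested genes, 9.51% were called lower and 8.9% higher. With so few genes in a role, these counts do not give a direction of any role. Asah2, the neutral ceramidase, and Gm2a had PPARγ-KO values above all WT values (log2 0.17 and 0.22, edgeR adjusted p = 0.137 and 0.051). The lower genes included Asah1, the acid ceramidase (log2 -0.31), Psap, the precursor of the saposin activators (-0.44), Arsa (-0.48) and Smpdl3a (-0.43). The others were Cerk, the ceramide kinase (-0.50), Gltp, a glycolipid transfer protein (-0.63), and the lactosylceramide synthases B4galt5 (-0.35) and B4galt6 (-0.63), with edgeR adjusted p from 0.000189 (Arsa) to 0.0485 (B4galt6) over these 8. Some calls were lost when 1 library was left out. Asah1 was lost without WT replicate 2 (edgeR adjusted p = 0.070), WT replicate 3 (0.0842) or PPARγ-KO replicate 3 (0.0529). B4galt5 was lost without WT replicate 1 or 3 or PPARγ-KO replicate 2 or 3 (0.0753 to 0.114), and B4galt6 without WT replicate 2 or 3 or PPARγ-KO replicate 1 or 3 (0.139 to 0.174). The macrophage marker sum moved with these genes (1128 to 1265 in WT and 542 to 679 in PPARγ-KO livers), and its part was not tested. Smpd2 shares 905 exonic bases with Mical1, Arsa 690 with C230037L18Rik and Spns2 131 with Mybbp1a, all on the opposite strand. None of these partners was called at either time.

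**Figure D5:**
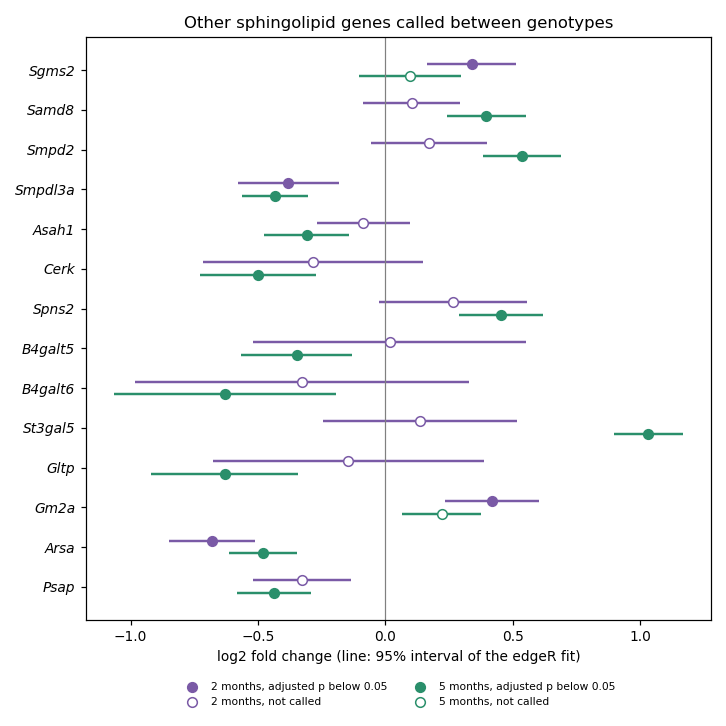
Log2 fold change of PPARγ-KO against WT at 2 months (violet) and 5 months (green) for 14 of the 15 other sphingolipid genes called at either time. Lines are 95% intervals, and filled points have an edgeR adjusted p below 0.05. St3gal5 stands at 1.03 at 5 months and 0.14 at 2 months, and Arsa and Smpdl3a are filled on the left at both times.

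Regulators of serine palmitoyltransferase were also called over time. Sptssa, the small activating subunit, and Ormdl1, Ormdl2 and Ormdl3, which inhibit the enzyme, were called higher at 5 months in WT (log2 0.58, 0.62, 0.75 and 0.52) and in PPARγ-KO livers (0.58, 0.38, 0.31 and 0.34). Ormdl3 was at 95.7 to 104.1 normalized CPM in WT at 2 months and 135.0 to 160.7 at 5 months. Ormdl2 shares 1114 exonic bases with Dnajc14 on the opposite strand, and Dnajc14 was also called higher over time (0.40 in WT and 0.42 in PPARγ-KO livers). Kdsr, the reductase of the next step, had a log2 change of 0.26 in PPARγ-KO livers (edgeR adjusted p = 0.0150) and of -0.003 in WT livers (edgeR adjusted p = 0.983). The difference between those changes was 0.27 (edgeR adjusted p = 0.309). In PPARγ-KO livers the Ormdl2 call was lost without replicate 1 (0.0583) or 2 (0.0502) at 5 months, and that of Kdsr without replicate 1 at 2 months (0.059) or replicate 3 at 5 months (0.056). None of these 5 genes was called between the genotypes at either time. At 2 months the PPARγ-KO libraries lay below all WT libraries for Kdsr (log2 -0.38, edgeR adjusted p = 0.068) and above them for Ormdl2 (0.38, edgeR adjusted p = 0.088) and Ormdl1 (0.24, edgeR adjusted p = 0.214). Sptlc3 and Sptssb, the remaining subunits, had at most 4 and 0 counts. Over the whole list, 22 of 39 genes were called over time in WT (13 higher and 9 lower) and 22 of 39 in PPARγ-KO livers (16 higher and 6 lower), beside 46.4% and 44.9% of all genes.

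Smpd3 had the smallest adjusted p of the 10 genes at 5 months, and the genes whose log2 normalized CPM was most like its own over the 12 libraries were Gm4617 (Pearson r = 0.905), Lasp1 (0.880), Fgf11 (0.866), Ppp1r3c (0.866) and Gstp3 (0.859). These values describe libraries that share group, time and depth.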

How the data were processed

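RNA-seq of whole liver was done on 12 libraries, 3 for each of WT and PPARγ-KO at 2 and 5 months of FFD. Total RNA was extracted with TRIzol and sequenced by Novogene on a NovaSeq. The authors deposited raw counts of reads per gene for each library, with gene symbols, positions and lengths, on mm10. The study's methods name STAR as the aligner and the submitters' processing notes name HISAT2. The counting program, annotation and use of strand are not given in the sources used here, so a gene overlapping another on the opposite strand may share its reads. No column of another sample was found (0).

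The members and lists were chosen with earlier results of these data known. The counts were filtered with filterByExpr, scaled by TMM and fitted with edgeR 4.0.16 (robust quasi-likelihood F-test, R 4.3.3), with Benjamini-Hochberg adjustment over all genes. Each comparison used its own 6 libraries, and the difference of genotype effects used all 12. SE is the log2 fold change over the square root of F. The edgeR and DESeq2 fits of each comparison were tested on simulated data with planted changes larger than any difference of a member. Recovery of differences as small as those of the members was not tested. Named were the 10 members, Pparg, each gene of a 50-gene sphingolipid list called between genotypes except 1 that is counted but not reported here, and the 5 genes most like the member with the smallest adjusted p at 5 months. Regulators of serine palmitoyltransferase were named after their values were seen. Alternatives were DESeq2 1.42.0, other scalings, filters and thresholds, a replicate block, 1 fit of all libraries, and leaving out each library. Same-numbered libraries deviated together weakly at 2 months (r = 0.218, 0.323 and 0.14 over 5000 genes) but not at 5 months (-0.0806, -0.0586 and -0.172). These correlations do not show a pairing, and blocked values stand beside results at 2 months as an alternative only. No 2 libraries of a group agreed within sampling noise, but WT replicates 2 and 3 at 5 months were the closest pair (chi-square per gene 2.44, beside 9.4 to 31.7 for the other pairs) and were counted as 2 libraries. Depth was 16367775 to 27452284 counts per library.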

Additional observations from a re-analysis of the deposited data

Results flagged for a closer look

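The knockout effect at 5 months differed from that at 2 months for 2 named genes that are no members, by the edgeR test of the difference itself. For St3gal5 the log2 difference of PPARγ-KO against WT was 0.14 at 2 months and 1.03 at 5 months, and the effects differed by 0.884 (SE 0.183, edgeR adjusted p = 0.0338). At 2 months PPARγ-KO replicate 3 was at 190.6 normalized CPM and the other PPARγ-KO libraries at 126.1 and 130.4. For Pparg, whose counts cover the whole gene, the effects were 0.52 and 1.15 and differed by 0.625 (SE 0.145, edgeR adjusted p = 0.0432). Each call held in 3 of the 12 fits that left out 1 library, for St3gal5 without WT replicate 1, PPARγ-KO replicate 1 or PPARγ-KO replicate 3 at 2 months, and for Pparg without WT replicate 1 or PPARγ-KO replicate 2 at 2 months or PPARγ-KO replicate 3 at 5 months. Over the 12 fits the difference ran from 0.778 to 1.10 for St3gal5 and from 0.552 to 0.764 for Pparg. Groups of 3 were too small for a search for outlying libraries.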

How the results depend on the processing

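Of 800 values of the 10 members under alternative settings (50 results), 726 kept their direction and side of the threshold, 10 lost the call, 40 gained it and 24 changed sign, the last all with an adjusted p of at least 0.629. The number of members called at 2 months, 0, became 1 at an adjusted p below 0.1, at an unadjusted p below 0.05 with 1.3-fold, with DESeq2, with the replicate block and with all 12 libraries in 1 fit, and 2 without the filter. Leaving out single libraries gave 0 to 2. Over all genes the 519 calls at 2 months became 1063, 1608, 988, 817 and 1153 in these settings in turn, and 1562 without the filter. With a library left out they became 117 to 1577, the most without WT replicate 1. The 2 called at 5 months became 3 at an adjusted p below 0.1 and with library size alone (Sptlc1 added), 3 without the filter and with the block (Cers6 added), 1 under the 1.3-fold rule, 0 with all 12 libraries in 1 fit and 1 to 2 with a library left out. Over all genes the 2602 calls at 5 months became 3540, 2783, 3015, 2303, 2397 and 2039 in these settings in turn. They became 1593 to 3078 with a library left out. The 4 called in WT over time became 7 with library size alone, and the 4 in PPARγ-KO livers became 6 at an adjusted p below 0.1, with DESeq2 and without the filter (Cers6 and Smpd3 added), and 3 to 6 with a library left out. Over all genes the 6725 calls in WT became 6617 with library size alone. The 6502 in PPARγ-KO livers became 7686, 5780 and 7051 in their settings in turn, and 5374 to 6024 with a library left out. The 0 called in the difference of genotype effects became 1 at an adjusted p below 0.1, under the 1.3-fold rule, with DESeq2, without the filter and with the block, and 0 to 1 with a library left out. Over all genes the 238 calls in that difference became 519, 1563, 594, 793 and 258 in these settings in turn. They became 83 to 567 with a library left out. Of the wider list, the 4 called at 2 months became 7 at an adjusted p below 0.1 and with all 12 libraries, 8 without the filter and 1 to 9 with a library left out (9 without WT replicate 1, and 1 or 2 in the other 5 fits). The 13 called at 5 months became 10 to 17 under the other settings and 9 to 16 with a library left out. The 22 called in WT over time became 14 to 22 with a library left out, lowest without replicate 2 at 5 months, and the 1 in the difference became 3 under the 1.3-fold rule and 0 to 1 with a library left out.

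Without the filter, the total degrees of freedom behind Cers6 at 2 months were 4175 in place of 8.17, so its SE there (0.102) treats the spread as nearly known. Library size alone moved the median log2 difference of all genes to between -0.0929 and -0.0687 in the genotype and time comparisons, and the calls at 5 months to 889 higher and 1894 lower, beside 1258 and 1344 with TMM (171 and 349 at 2 months, beside 259 and 260). Same-numbered libraries did not deviate together at 5 months. Across the times their correlations were 0.239, 0.186 and 0.0198 in WT and -0.0394, 0.216 and -0.0216 in PPARγ-KO livers. The times are separate sets of animals, so the block at 5 months or across the times shares only a number. It gave Cers6 an adjusted p of 0.0129 at 5 months and of 0.00893 over time in PPARγ-KO livers and changed no other call of a member outside those given. At all genes it moved the calls at 2 months from 519 to 817.

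Signs changed only in small differences. Sptlc1 at 2 months was 0.001 without the filter and -0.072 to 0.053 with a library left out. Degs1 over time was -0.048 in WT and -0.013 in PPARγ-KO livers with library size alone. Kdsr over time in WT was 0.011 without the filter and 0.002 with the block. With a library left out, values ran from -0.076 to 0.246 for St3gal5 at 2 months, and at 5 months from -0.190 to 0.040 for Cers4, -0.314 to 0.013 for Cers5 and -0.084 to 0.014 for Degs1. Over time in WT they ran from -0.212 to 0.080 for Cers5, -0.009 to 0.089 for Degs1 and -0.056 to 0.094 for Kdsr, and in PPARγ-KO from 0.000 to 0.296 for Cers5 and -0.205 to 0.011 for Ugcg. The difference of genotype effects ran from -0.139 to 0.160 for Sptlc2, -0.081 to 0.032 for Cers2, -0.032 to 0.066 for Degs1, -0.007 to 0.356 for Smpd3 and -0.024 to 0.186 for Ugcg. Except where stated, the cause of a change was not tested.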
